A study of Mus musculus with 22 samples.

Results

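9 genes known for their roles in pluripotent cells, Pou5f1, Nanog, Utf1, Sall4, Zfp42, Esrrb, Klf4, Tfcp2l1 and Pou3f1, were followed across the days, cell types and single gastruloids of a mouse gastruloid series. They were chosen by name, as 9 of the 32285 genes in the files, and each name matched 1 gene. In the experiment with all 5 days, Pou5f1 and Nanog fell at every step up to day 4.5, and the mean level of Pou5f1 was 128 times lower at day 5 than at day 3. Sall4 and Klf4 showed no such decline between day 3 and day 5. Sall4 was at 111.3 ± 11.7 CPM at day 3 and 92.9 ± 12.5 at day 5 (SD, n = 24 and 16). CPM are UMI counts, or counted RNA molecules, on a per-million scale. At day 5 the remaining Utf1 and Zfp42 UMIs came mostly from a few cells of the primordial germ cell and Primitive Streak clusters. This counts only cells assigned to 1 gastruloid, and the clusters may have been named from these genes.

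Gastruloids are clumps of embryonic stem cells that, left to grow in culture, develop tissues resembling those of an early embryo. All groups here were the wild-type mouse line E14Tg2A, grown as stem cells in serum with LIF, aggregated in N2B27 medium and treated with a pulse of CHIR99021, which blocks GSK3 and so switches on Wnt signalling. Single-cell 3′ RNA libraries were made from gastruloids of days 3, 3.5, 4, 4.5 and 5. In the experiments called MULTI-seq a DNA barcode added to each gastruloid before pooling allowed its cells to be traced back to it. MULTI-seq 3 held 24 gastruloids of day 3 in a pool of their own, 16 each of days 3.5 and 4 in a shared pool and 16 each of days 4.5 and 5 in another. MULTI-seq 2 gave 11 gastruloids of day 4 and 12 of day 4.5 from 1 pool, and MULTI-seq 1 gave 24 of day 5. Other lanes of MULTI-seq 2 held days 3 and 3.5 together, and they were not used here. The groups share 1 line of stem cells and the same treatment, and no group was grown without the pulse, so the groups differ in day, pool and experiment only. A gastruloid is grown without trophoblast or maternal tissue. The stem cells of day 0 were not analysed here, so day 3 is the first point measured. Falls before day 3 cannot be seen. P-values measure the spread between gastruloids of 1 experiment, which share culture and library.

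The authors' deposited table listed 77674 final cells in 18 lanes with 25 cell type names, and 53730 of these cells were assigned to 1 gastruloid. UMI sums ran from 1293296 to 57333371 per gastruloid. Of the cell barcodes, 0.952% occurred in more than 1 lane. Median mitochondrial shares were 1.94% to 2.26% of UMIs in the lanes of MULTI-seq 3 and 4.85% to 5.48% in the other lanes. The UMIs of a gene were summed over the cells of a gastruloid and are given as CPM, relative to all UMIs of that gastruloid. A fall of this value can come from fewer cells that express the gene or from less RNA per cell, which cannot be told apart in such sums.

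Pluripotency is the ability of a cell to form all tissues of the embryo proper. In mouse it passes from a naive state, as in the inner cell mass and in stem cells in culture, through a formative state to a primed state in the epiblast after implantation, and it ends as cells leave the epiblast at gastrulation. Pou5f1 (OCT4), with Sox2 and Nanog, forms the core of the network in all of these states, and it is kept or switched on again in primordial germ cells. Zfp42 (REX1), Esrrb, Klf4 and Tfcp2l1 belong to the naive state, and Utf1 is a chromatin factor of pluripotent cells. Pou3f1 (OCT6) is a POU factor of the formative and primed epiblast that is also used in the nervous system, and Sall4 is a zinc finger factor used in pluripotent cells and in many tissues of the embryo.

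Promoter sequences were looked up because several members fell together and OCT4 binds the octamer. RefSeq windows on GRCm38.p6 were at hand for 7 of the 9 genes, and the bases before the transcription start were searched on both strands for the octamer ATGCAAAT, for the composite SOX-OCT motif (CATTGT, any 1 base, then ATGCAA) and for the ESRRB motif TCAAGGTCA. The octamer was in 1.60% of 32851 windows of all genes, the composite in 0.0122% and the ESRRB motif in 0.387%. The composite overlaps the octamer in its last letters. Nanog held the composite on the reverse strand, 74 to 62 bases before the start of the window given below. From its other RefSeq start the same match lay 150 to 138 bases upstream. Both Nanog windows are among the 4 windows of all genes that held the composite. Zfp42 held the octamer on the reverse strand, 186 to 179 bases before its start. None of these letters was in the windows of Pou5f1, Utf1, Esrrb, Klf4 and Tfcp2l1. The windows of the 4 members with the steepest fall from day 3 to day 3.5 are given, so that the matches can be seen beside windows without one. They run 5′ to 3′ on the strand of the gene, with the matches in capitals: Nanog at chr6:122707239-122707488 on the plus strand, Zfp42 at chr8:43307010-43307259 on the minus strand, Pou5f1 at chr17:35505782-35506017 on the plus strand and Utf1 at chr7:139943606-139943788 on the plus strand.
Nanog: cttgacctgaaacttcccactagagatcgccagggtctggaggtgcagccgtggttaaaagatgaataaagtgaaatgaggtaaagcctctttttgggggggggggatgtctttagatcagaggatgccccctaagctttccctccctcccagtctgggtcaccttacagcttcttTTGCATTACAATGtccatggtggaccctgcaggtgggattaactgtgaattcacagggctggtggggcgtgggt
Zfp42: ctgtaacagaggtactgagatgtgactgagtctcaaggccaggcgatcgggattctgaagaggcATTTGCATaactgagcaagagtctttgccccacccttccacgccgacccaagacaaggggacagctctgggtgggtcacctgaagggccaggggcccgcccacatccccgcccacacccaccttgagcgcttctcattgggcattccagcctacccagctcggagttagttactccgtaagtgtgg
Pou5f1: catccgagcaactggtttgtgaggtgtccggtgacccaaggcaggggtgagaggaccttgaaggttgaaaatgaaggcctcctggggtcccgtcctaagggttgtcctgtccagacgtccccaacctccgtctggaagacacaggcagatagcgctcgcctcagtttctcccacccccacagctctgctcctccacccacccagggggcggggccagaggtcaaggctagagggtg
Utf1: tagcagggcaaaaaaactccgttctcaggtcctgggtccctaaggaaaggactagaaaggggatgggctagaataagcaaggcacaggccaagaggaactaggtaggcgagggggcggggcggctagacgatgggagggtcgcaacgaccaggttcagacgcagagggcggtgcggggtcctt

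Pou5f1, which encodes the POU factor OCT4 (chromosome 17, 35506018 to 35510772, mm10), was high and even at day 3 and low in every gastruloid of day 5. In MULTI-seq 3 the lowest, median and highest gastruloid had 467.9, 710.6 and 839.9 CPM at day 3 and 128.5, 278.7 and 449.5 at day 3.5. They had 23.5, 35.96 and 140.5 CPM at day 4, 3.28, 6.64 and 17.0 at day 4.5, and 1.48, 4.93 and 19.1 at day 5. The groups of days 3 and 3.5 did not overlap, nor did those of days 4 and 4.5, whereas the highest gastruloid of day 4 reached into the range of day 3.5. Both steps without overlap compare different pools. How many of all genes show no overlap there was not counted, here or for Nanog and Utf1 below. Means fell 2.57-fold, 6.05-fold and 6.18-fold over the first 3 steps and 1.33-fold over the last. An antisense gene, Gm19553, overlaps Pou5f1, and the sources used here do not give how strand was used in counting.

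**Figure D1:**
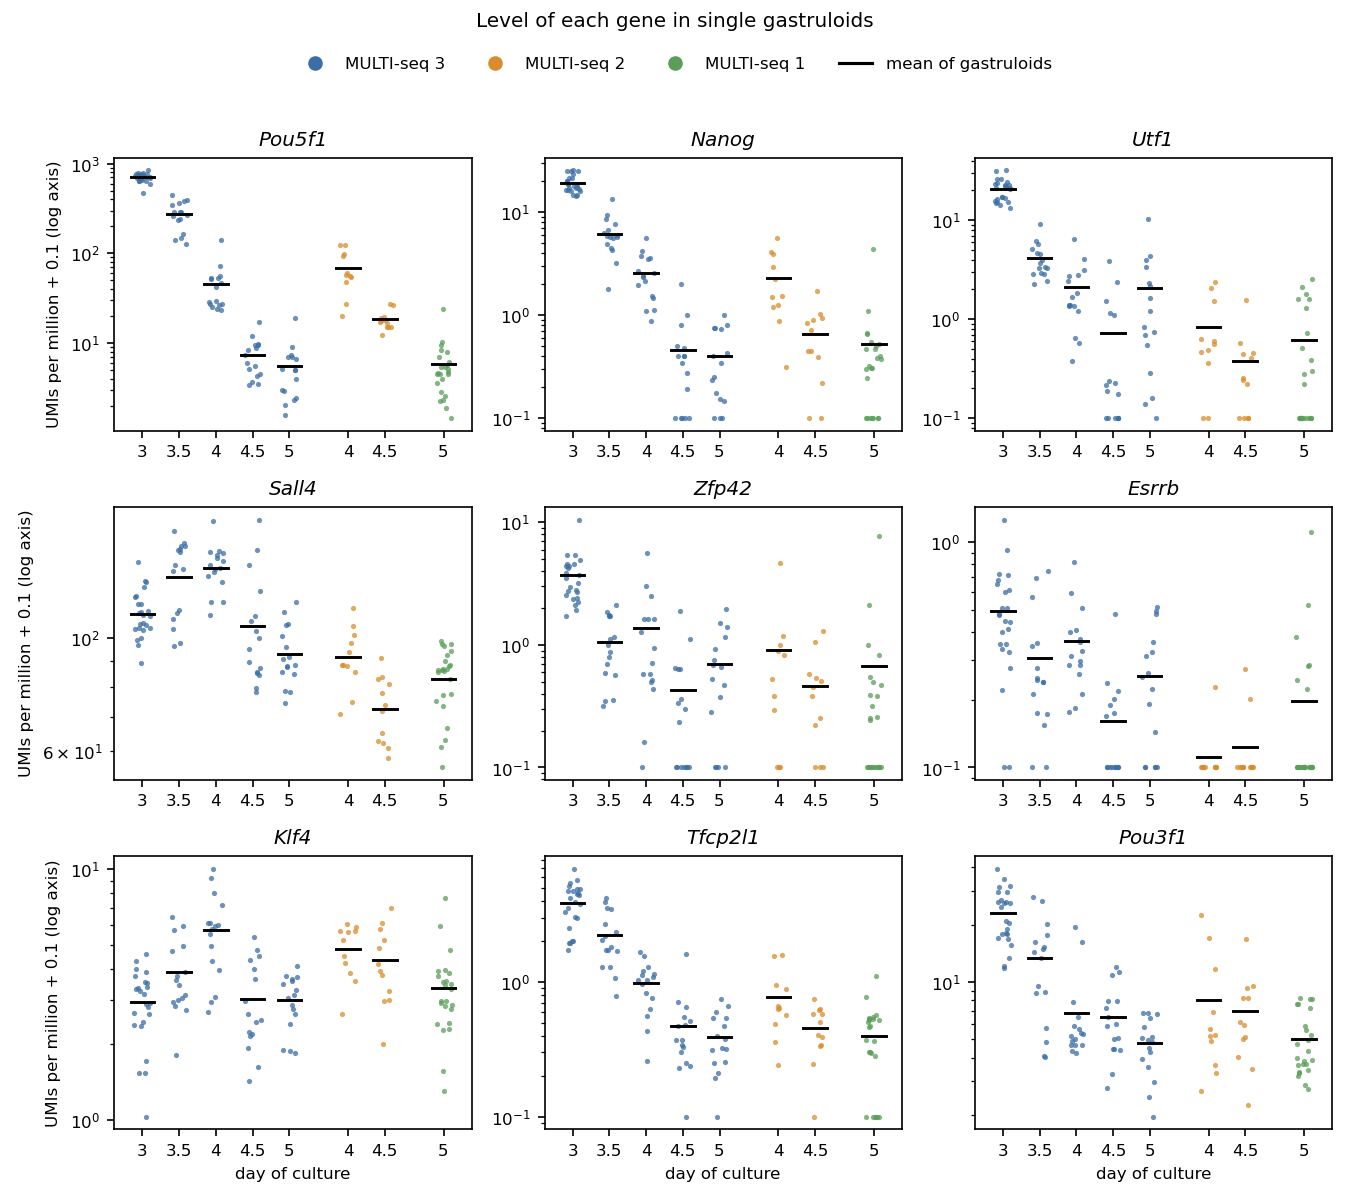
Level of the 9 genes in single gastruloids, in CPM plus 0.1 on a log axis, by day of culture. Points are gastruloids, black lines are means and colours are the experiments; Pou5f1 and Nanog step down from day 3 to day 4.5 while Sall4 stays within 55.7 to 169.8 CPM throughout.

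Nanog, a homeodomain factor of the core network (chromosome 6, 122707489 to 122714633), had 14.1, 18.1 and 25.2 CPM in the lowest, median and highest gastruloid of day 3 and 1.68, 5.67 and 13.1 at day 3.5, without overlap. It was at 0.773, 2.25 and 5.48 CPM at day 4, 0, 0.273 and 1.88 at day 4.5 and 0, 0.200 and 0.899 at day 5. At least 1 Nanog UMI was found in each of the 16 gastruloids of day 4, in 11 of 16 at day 4.5 and in 13 of 16 at day 5. The day 3 mean was 62.0 times that of day 5.

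Utf1 (chromosome 7, 139943789 to 139945112) had 13.3, 21.0 and 31.7 CPM at day 3 and 2.16, 3.42 and 9.09 at day 3.5, again without overlap. It was at 0.281, 1.43 and 6.34 CPM at day 4, at 0, 0.103 and 3.75 at day 4.5 and at 0, 0.930 and 10.2 at day 5. The range of day 5 was thus wider than that of day 4.5 and overlapped it. Zfp42, a zinc finger gene that marks naive cells (chromosome 8, 43295063 to 43306980), was at 1.62, 3.26 and 10.4 CPM at day 3, 0.219, 0.844 and 2.01 at day 3.5, 0, 0.729 and 5.57 at day 4, 0, 0.170 and 1.81 at day 4.5 and 0, 0.494 and 1.85 at day 5. Its groups overlapped at each step.

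Tfcp2l1, a naive state factor (chromosome 1, 118627945 to 118685168, overlapped by Gm23497 on its own strand and by Gm22094 and Gm28882 on the other), had means of 3.77 ± 1.39, 2.14 ± 1.05, 0.876 ± 0.385, 0.371 ± 0.347 and 0.293 ± 0.183 CPM at days 3 to 5 (SD, n = 24, 16, 16, 16 and 16). Esrrb, an orphan nuclear receptor of the naive state (chromosome 12, 86361117 to 86521628), was near the limit of detection: its means were 0.0608 to 0.396 CPM, 7 of 16 gastruloids had any UMI at day 4.5, and it was not tested in any step because it did not pass the filter on low counts. Klf4, a Krüppel-like factor (chromosome 4, 55527143 to 55532466), had means of 2.86 ± 0.905, 3.77 ± 1.31, 5.64 ± 2.13, 2.95 ± 1.21 and 2.91 ± 0.722 CPM over the same days. Its highest mean was at day 4, and its ranges overlapped between all neighbouring days.

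Sall4 (chromosome 2, 168748332 to 168767943, with an antisense gene, Gm14261) was at 89.0, 110.3 and 140.6 CPM in the lowest, median and highest gastruloid of day 3, 96.3, 137.4 and 161.3 at day 3.5 and 110.6, 137.4 and 169.0 at day 4. At day 4.5 it was at 78.2, 97.3 and 169.8 CPM and at day 5 at 74.3, 89.6 and 117.1. All 5 ranges overlapped. Pou3f1 (chromosome 4, 124656807 to 124660655, with an antisense gene, Gm2164) went from 11.8, 22.7 and 39.2 CPM at day 3 to 3.94, 13.8 and 27.9 at day 3.5, 4.13, 5.17 and 19.3 at day 4, 2.65, 5.81 and 11.8 at day 4.5 and 1.85, 4.80 and 6.75 at day 5. Neighbouring days overlapped, and the medians fell up to day 4 and lay between 4.80 and 5.81 from then on.

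Steps between days were tested with edgeR's quasi-likelihood test on UMI sums per gastruloid, with Benjamini-Hochberg adjustment over all genes tested. The filter on low counts can be passed through 1 day alone. For a member with few UMIs on the later day, a fall was then the likely outcome. The fitted changes are scaled by TMM, which centres them on the bulk of genes. CPM are scaled by UMI totals, so both can differ. With UMI totals in the fit, an alternative chosen after seeing the data, the median change over all genes moved from 0.03 to 0.19 from day 3 to 3.5 and from -0.02 to -0.22 from day 4 to 4.5. Between experiments it moved from 0.02 to 0.18 at day 4 and from -0.02 to -0.25 at day 5. Days 3.5 and 4 shared 1 pool, as did days 4.5 and 5, so these steps compare gastruloids from the same libraries. The steps from day 3 to 3.5 and from day 4 to 4.5 compare different pools, so pool and day cannot be told apart there.

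From day 3 to day 3.5, 8 of the 9 members passed the filter on low counts, 6 were lower, none was higher, while 35.6% of all 11981 genes tested were lower and 39.3% higher (21.4% and 55.3% with UMI totals). Utf1 fell by 2.52 on the log2 scale (SE 0.15, adjusted p = 4.29e-19), Nanog by 1.83 (SE 0.14, adjusted p = 6.44e-16) and Pou5f1 by 1.54 (SE 0.11, adjusted p = 5.53e-16). For each of these 3 genes all 16 gastruloids of day 3.5 were below the median of day 3. Zfp42 fell by 2.16, and Tfcp2l1 and Pou3f1 each fell by 1.03 (largest adjusted p of the 3, 1.03e-05). Zfp42 had medians of 3.26 CPM at day 3 and 0.844 at day 3.5. It likely passed the filter through day 3, which made a fall the likely outcome. Sall4 changed by 0.07 (adjusted p = 0.262) and Klf4 by 0.23 (adjusted p = 0.148). With UMI totals both passed, at 0.23 (adjusted p = 6.39e-04) and 0.39 (adjusted p = 0.0155). The value of Sall4 turned to -0.38 (SE 0.06, adjusted p = 2.1e-07) when cells of the PGC, Primitive Streak and Epiblast clusters were left out, an alternative chosen after seeing the data; those clusters held 59.1% of cells at day 3 and 13.2% at day 3.5.

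From day 3.5 to day 4, within 1 pool, 5 of 8 tested members were lower and 1 was higher, while 29.2% of 13262 genes were lower and 31.1% higher. Pou5f1 fell by 2.62 (SE 0.24, adjusted p = 2.59e-10), in 16 of 16 gastruloids relative to the median of day 3.5. Nanog fell by 1.32 (adjusted p = 2.99e-05), Tfcp2l1 by 1.29 (adjusted p = 3.76e-05), Utf1 by 1.04 (adjusted p = 0.00359) and Pou3f1 by 0.96 (adjusted p = 0.00271). Klf4 was the member that rose, by 0.56 (SE 0.18, adjusted p = 0.00964, above the day 3.5 median in 13 of 16 gastruloids). Zfp42 (0.46, SE 0.45, adjusted p = 0.38) and Sall4 (0.04, adjusted p = 0.598) were not called.

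**Figure D2:**
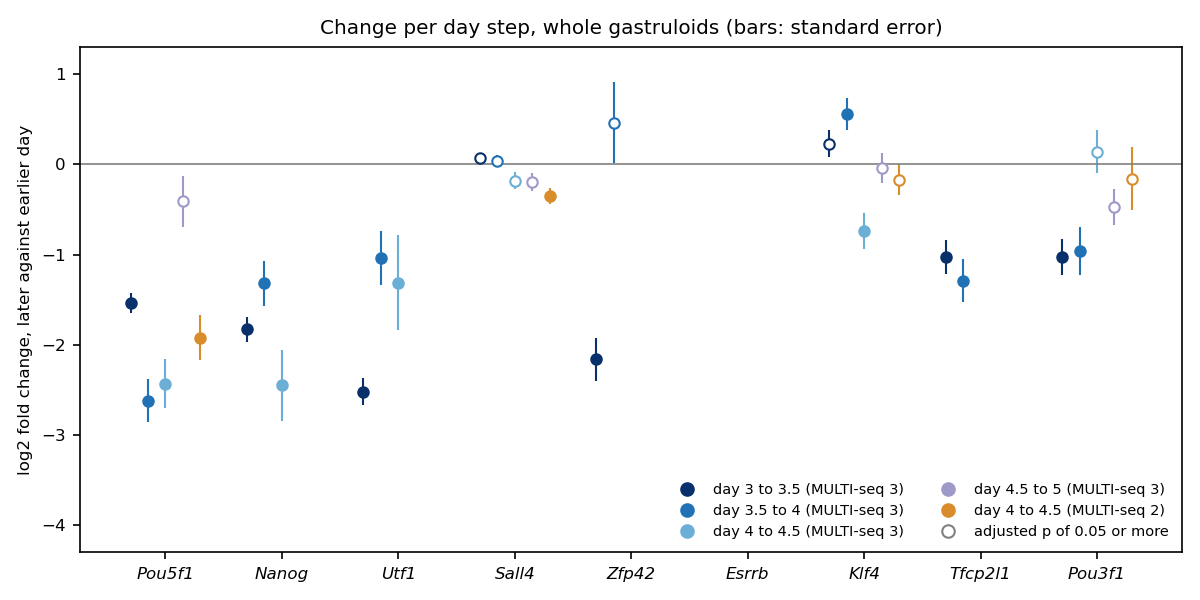
Log2 fold change of each member per day step over whole gastruloids, with standard errors; filled points have an adjusted p under 0.05 and open points do not, and members that failed the filter on low counts have no point. Pou5f1 falls by 1.54 to 2.62 in the first 3 steps of MULTI-seq 3 and by 1.92 in MULTI-seq 2, and Sall4 lies between -0.35 and 0.07.

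From day 4 to day 4.5, 4 of 6 tested members were lower and none was higher, while 33.8% of 12843 genes were lower and 32.4% higher (53.6% and 17.5% with UMI totals). Nanog and Utf1 had medians of 0.273 and 0.103 CPM at day 4.5 and passed the filter through day 4 (2.25 and 1.43). For both a fall was the likely outcome, and the count of 4 rests in part on that. Pou5f1 fell by 2.43 (SE 0.27, adjusted p = 1.16e-09) and Nanog by 2.45 (SE 0.39, adjusted p = 1.77e-06), and every gastruloid of day 4.5 was below the day 4 median for both. Klf4 fell by 0.74 (SE 0.20, adjusted p = 0.00154) after its rise over the step before. Utf1 fell by 1.31 (SE 0.53, adjusted p = 0.0283), but the call was lost without lane A or B of the earlier pool or lane B or C of the later one (adjusted p between 0.0509 and 0.184, change of -1.25 to -0.82), and the change was -2.58 without lane A of the later one. Sall4 was at -0.18 (SE 0.09, adjusted p = 0.0928), and it passed the threshold without lane A of the later pool (-0.21, adjusted p = 0.0449), with no filter on low counts (-0.25, adjusted p = 0.0278) and with UMI totals (-0.38, adjusted p = 4.3e-04).

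From day 4.5 to day 5, within 1 pool, edgeR called 0 of 4 tested members, DESeq2 also called 0, and Pou3f1 was the member with an unadjusted p under 0.05; 13.5% of 12298 genes were called in either direction, and with UMI totals 7.33% were higher and 5.25% lower. Pou5f1 was at -0.41 (SE 0.28, adjusted p = 0.356), with 11 of 16 gastruloids below the day 4.5 median. Without cells of the PGC cluster its change was -0.77 (SE 0.26, adjusted p = 0.0431). Without cells of the PGC, Primitive Streak and Epiblast clusters it was -1.19 (SE 0.19, adjusted p = 0.000101). The last alternative was chosen after seeing the data. The clusters left out held much of the day 5 Pou5f1 UMIs, and their names may rest on this gene. Both results therefore select cells in part by the gene tested, and no conclusion is drawn from them. Without lane A of the pool the change was -0.12 (adjusted p = 0.885). Pou3f1 was at -0.47 (adjusted p = 0.110) and reached -0.58 (adjusted p = 0.0446) without lane C, Sall4 was at -0.20 (adjusted p = 0.181) and Klf4 at -0.04 (adjusted p = 0.917).

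MULTI-seq 2 held the step from day 4 to 4.5 within 1 pool. Pou5f1 had 19.96, 57.6 and 124.7 CPM in the lowest, median and highest gastruloid of day 4 and 12.3, 17.2 and 27.4 at day 4.5, ranges that overlapped. It fell by 1.92 (SE 0.25, adjusted p = 4.23e-05, below the day 4 median in 12 of 12). Sall4 fell by 0.35 (SE 0.09, adjusted p = 0.0137), which was lost with gastruloids of at least 100 cells (-0.25, adjusted p = 0.146) and without lane 3 (-0.28, adjusted p = 0.107). These were 2 of 4 tested members, and 4.33% of 11064 genes were lower (3.43% with UMI totals, and 4.62% higher). Klf4 (-0.17, adjusted p = 0.608) and Pou3f1 (-0.16, adjusted p = 0.86) were not called.

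Gastruloids of the same age were also compared between experiments, where culture, library and lanes cannot be told apart. At day 4, Sall4 was higher in MULTI-seq 3 than in MULTI-seq 2 by 0.42 (SE 0.06, adjusted p = 3.07e-06, above the median of MULTI-seq 2 in 16 of 16) and Pou5f1 lower by 0.74 (SE 0.30, adjusted p = 0.0425); of 13713 genes, 23% were higher and 23.1% lower (38.7% and 11.3% with UMI totals). The Pou5f1 difference was lost without lane 2 (-0.53, adjusted p = 0.227) or lane 3 (-0.56, adjusted p = 0.187) of MULTI-seq 2 and was -0.12 (adjusted p = 0.842) in gastruloids of at least 100 cells and -0.57 (adjusted p = 0.109) with UMI totals. Utf1 was at 1.29 (adjusted p = 0.0562) and passed the threshold with UMI totals (1.45, adjusted p = 0.0288), without lane 3 of MULTI-seq 2 (2.65, adjusted p = 0.0116) and without lane C or D of MULTI-seq 3 (adjusted p = 0.0417 and 0.0356).

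At day 4.5, Pou5f1 was lower in MULTI-seq 3 by 1.26 (SE 0.20, adjusted p = 8.04e-06, below the median of MULTI-seq 2 in 16 of 16) and Sall4 higher by 0.59 (SE 0.12, adjusted p = 1.47e-04, above it in 16 of 16), while 21.3% of 11695 genes were lower and 21.1% higher (26.3% and 17.1% with UMI totals). Klf4 was lower by 0.51 (adjusted p = 0.0412), a call lost without lane 2 or 3 of MULTI-seq 2 and without lane B or C of MULTI-seq 3 (adjusted p of 0.0588 to 0.106). At day 5, Sall4 was higher in MULTI-seq 3 than in MULTI-seq 1 by 0.38 (SE 0.06, adjusted p = 1.71e-06, above the median of MULTI-seq 1 in 11 of 16), as were 30% of 11718 genes. With UMI totals it was higher by 0.16 (adjusted p = 0.0215), as were 13.5% of genes. Pou5f1 did not pass the test at day 5 (0.28, SE 0.27, adjusted p = 0.38), while it did so without lane 3 of MULTI-seq 1 (0.58, adjusted p = 0.0401) and was at -0.02 (adjusted p = 0.958) without the PGC cluster and 0.06 (adjusted p = 0.849) with UMI totals. Its mean was 5.51 ± 4.26 CPM in MULTI-seq 3 and 5.70 ± 4.57 in MULTI-seq 1 (SD, n = 16 and 24). Mitochondrial shares also differed between the experiments, as given above, and their part in these differences was not tested.

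Lanes without gastruloid calls gave 1 value each and entered no test. The 10X experiment had 634.9 Pou5f1 CPM at day 3 (exact Poisson 95% interval 628.2 to 641.6) and 35.0 at day 4 (33.1 to 36.9), and Sall4 at 95.2 and 79.4 CPM. Nanog was at 27.5 and 1.25 CPM there, and Pou3f1 at 8.02 and 7.16. The Pou3f1 value of the day 3 lane lay below the lowest gastruloid of MULTI-seq 3 at that day (11.8 CPM). The 2 lanes of pool C of MULTI-seq 2, in which days 4 and 4.5 were mixed, had 44.8 and 44.0 Pou5f1 CPM. These intervals cover counting error only.

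Levels by cell type are a description, since the authors' types were named from gene expression that may include these genes. They are means over gastruloids with at least 10 cells of a type, given where at least 3 such gastruloids were found, and neighbours in the order of types are said to differ where the means differ by more than the larger SD. At day 3, Pou5f1 was highest in Early Neurectoderm (882.0 ± 74.5 CPM, SD, n = 21) and lowest in Anterior Primitive Streak (378.3 ± 82.5, n = 4), and 2 of 6 neighbouring pairs differed beyond their spread. Primitive Streak, 56.8% of the cells, was at 774.2 ± 39.5 (n = 24). The 7 types with enough gastruloids lay within a range of 2.33-fold. Of the types below that minimum at day 3, after thinning each cell to 5000 UMIs, a Pou5f1 UMI was found in 98.6% of 141 PGC cells and 80.2% of 172 Epiblast cells. It was found in 12% of 83 Late Neurectoderm, 17.7% of 79 Mature Endoderm, 20.4% of 49 Notochord and 35.7% of 28 Early Spinal Cord cells, against 80.2% to 97.2% in the 7 types. At day 3.5 the 11 types, which were not the same set, spanned 37.3-fold, from Early Neurectoderm (546.7 ± 58.8, n = 9) to Late Spinal Cord (14.7 ± 9.10, n = 3), and 5 of 10 neighbouring pairs differed beyond their spread.

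At day 4 the range of Pou5f1 over 16 types was 91.0-fold. Primitive Streak was at 503.1 ± 103 CPM (n = 5), Caudal Epiblast at 128.6 ± 30.3 (n = 15), Early Posterior PSM (presomitic mesoderm, the tissue that forms somites) at 58.6 ± 23.8 (n = 16), Mature Endoderm at 49.5 ± 27.5 (n = 14) and NMPs (neuromesodermal progenitors) at 27.5 ± 10.8 (n = 14). Mature Somites (6.16 ± 1.07, n = 7) and Head Mesoderm (5.53 ± 1.39, n = 7) were the lowest, and 2 of 15 neighbouring pairs differed beyond their spread. At day 5 the highest of 12 types was Late Neurectoderm with 14.6 ± 2.93 (n = 4), followed by Mature Endoderm with 7.16 ± 4.40 (n = 9), and Endothelium was lowest with 1.78 ± 1.80 (n = 6).

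**Figure D3:**
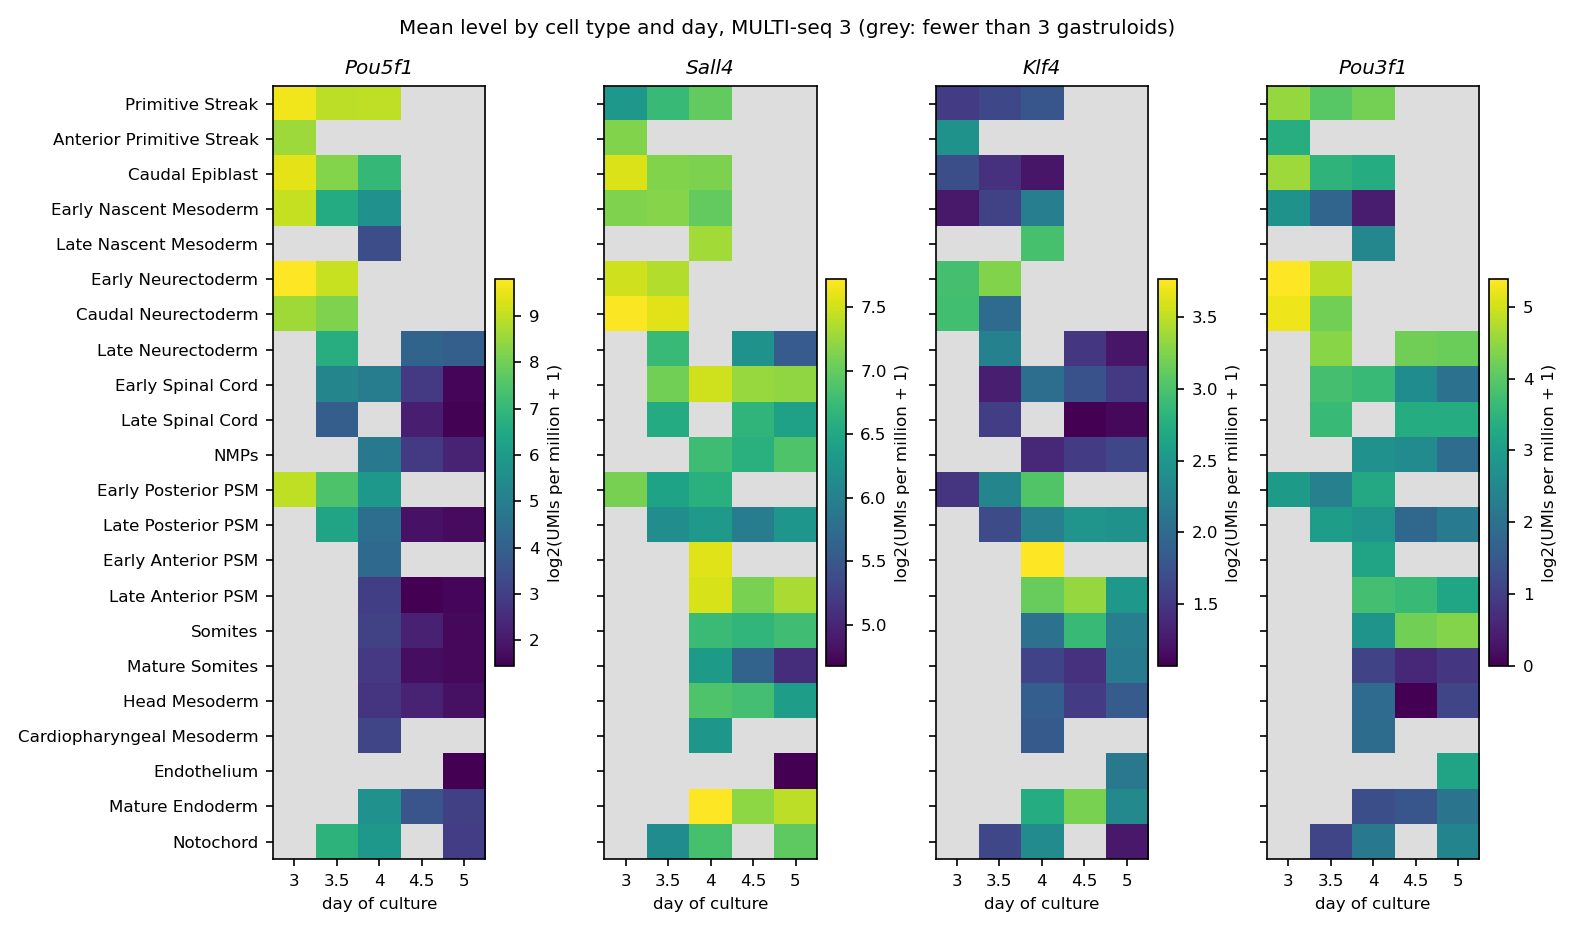
Mean level of Pou5f1, Sall4, Klf4 and Pou3f1 by cell type and day in MULTI-seq 3, as log2(CPM + 1), with a colour scale for each gene and grey where fewer than 3 gastruloids had 10 cells of the type. Pou5f1 darkens from left to right in most types that last several days but not in Primitive Streak from day 3.5 to 4 (490.6 and 503.1 CPM), while Sall4 is at 133.7, 179.5, 150.6 and 147.8 CPM in Early Spinal Cord at days 3.5, 4, 4.5 and 5 and is low in Mature Somites.

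Sall4 followed another order. It was lowest in Primitive Streak at day 3 (77.8 ± 6.01 CPM, n = 24), where Caudal Neurectoderm had 207.2 ± 67.2 (n = 5). At day 4 it was highest in Mature Endoderm (209.6 ± 24.2, n = 14), Early Anterior PSM (188.7 ± 19.6, n = 14) and Late Anterior PSM (184.2 ± 28.2, n = 10), and 0 of 15 neighbouring pairs differed beyond their spread. At day 5 it was at 169.6 ± 34.5 in Mature Endoderm (n = 9), 159.5 ± 29.2 in Late Anterior PSM (n = 15) and 147.8 ± 20.3 in Early Spinal Cord (n = 16). Mature Somites (32.8 ± 4.98, n = 16) and Endothelium (24.6 ± 7.17, n = 6) were the lowest of day 5, and 5 of 11 neighbouring pairs differed beyond their spread.

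Klf4 was highest in Early Neurectoderm at days 3 and 3.5 (6.84 ± 2.99 CPM, n = 21, and 8.53 ± 3.69, n = 9) and in the anterior presomitic mesoderm later: 12.6 ± 3.41 in Early Anterior PSM at day 4 (n = 14) and 9.11 ± 7.01 in Late Anterior PSM at day 4.5 (n = 9). Caudal Epiblast had 1.35 ± 0.990 at day 4 (n = 15). Pou3f1 was highest in Early Neurectoderm at day 3 (40.7 ± 10.96, n = 21), at 22.2 ± 5.78 in Primitive Streak (n = 24), and at 18.0 ± 14.9 and 19.8 ± 7.37 in Somites at days 4.5 and 5 (n = 10 and 12). Late Neurectoderm stayed near it with 17.5 ± 0.761 and 17.2 ± 7.70 (n = 3 and 4), whereas Mature Somites had 0.513 ± 0.640 and 0.798 ± 0.368 (n = 13 and 16). On each day 0 or 1 neighbouring pairs of types differed beyond their spread for Klf4, and 1 or 2 for Pou3f1.

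Among the types with enough gastruloids, Nanog was highest in Primitive Streak at day 3 (24.8 ± 3.84 CPM, n = 24) and day 4 (37.4 ± 23.1, n = 5). Mature Endoderm was next at day 4 (13.2 ± 10.0, n = 14), and Somites had 0 (n = 12). In the PGC cluster, below that minimum at day 3, 24.1% of 141 cells had a Nanog UMI after thinning to 5000 UMIs, against 11.1% in Primitive Streak. At day 3 Utf1 was at 23.4 ± 8.14 in Early Neurectoderm (n = 21), 20.8 ± 4.68 in Primitive Streak (n = 24) and 15.5 ± 5.50 in Caudal Epiblast (n = 6), and at 1.46 ± 1.51 in Early Nascent Mesoderm (n = 20). The 3 highest of the 7 types with enough gastruloids did not differ from each other beyond their spread. Below that minimum, a Utf1 UMI was found after thinning in 72.3% of PGC and 29.1% of Epiblast cells, against 9.38% in Early Neurectoderm. At day 4, Utf1 was at 41.2 ± 38.4 in Primitive Streak (n = 5) and 4.14 ± 6.92 in Mature Endoderm (n = 14).

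Cells with at least 1 UMI were counted after thinning each cell to 5000 UMIs, over the cells with a gastruloid call and, for day 3, all cells of its pool. Pou5f1 was found in 96.7% of 6944 Primitive Streak cells at day 3 (100% before thinning), in 8.43% of 1780 Early Anterior PSM cells at day 4 and in 1.44% of 3190 Mature Somites cells at day 5. Mature Somites, with a median of 24908 UMIs per cell, served as the type that should lack the gene, and 5.80% of its cells had a Pou5f1 UMI before thinning. At day 5 the Early Spinal Cord had 0.909% of 1870 (median 31353 UMIs), which is at or below this background, and Mature Endoderm had 2.67% of 449 (exact 95% interval 1.39% to 4.62%, median 36116 UMIs) against 1.06% to 1.92% in Mature Somites. These intervals are over pooled cells and leave out the spread between gastruloids, so the types were not tested against each other here. Nanog was found in 11.1% of the Primitive Streak cells of day 3 and, at day 5, in 0.668% of Mature Endoderm cells.

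Steps were also tested within cell types, on UMI sums per gastruloid and type, for types with at least 5 gastruloids on both days; these tests are conditional on the authors' names. From day 3 to 3.5, Pou5f1 was lower in 6 of 6 types, by 0.63 in Caudal Neurectoderm (SE 0.12, adjusted p = 2.06e-04) to 2.78 in Early Nascent Mesoderm (SE 0.13, adjusted p = 4.98e-24). Of all genes tested, 8.39% were lower in Caudal Neurectoderm, 10.3% in Caudal Epiblast, 22.6% in Early Nascent Mesoderm, 23.4% in Early Neurectoderm, 25.2% in Early Posterior PSM and 29.5% in Primitive Streak. Primitive Streak, from 774.2 ± 39.5 to 490.6 ± 50.9 CPM (n = 24 and 16), fell by 0.80 (SE 0.03, adjusted p = 1.45e-31). Utf1 was lower in each of the 3 types in which it was tested, with the largest fall in Early Neurectoderm (2.98, SE 0.23, adjusted p = 5.34e-18). It may have passed the filter on low counts there through day 3 alone. Pou3f1 was lower in 4 of 4 types, by 0.77 to 1.27. Nanog was lower in Primitive Streak (0.72 on the log2 scale, adjusted p = 1.53e-08) and Caudal Neurectoderm (adjusted p = 0.039) and was at -0.01 (SE 0.16, adjusted p = 0.962) in Early Neurectoderm.

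Sall4 moved in both directions over that step. It was lower in 4 of 6 types, by 0.80 in Early Posterior PSM (SE 0.08, adjusted p = 6.74e-10) and by 0.51 in Caudal Epiblast (SE 0.09, adjusted p = 1.45e-04), and it was higher by 0.23 in Primitive Streak (SE 0.05, adjusted p = 1.85e-05). Of all genes tested in Primitive Streak, 32.8% were higher. Over whole gastruloids the value was 0.07, as given above.

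**Figure D4:**
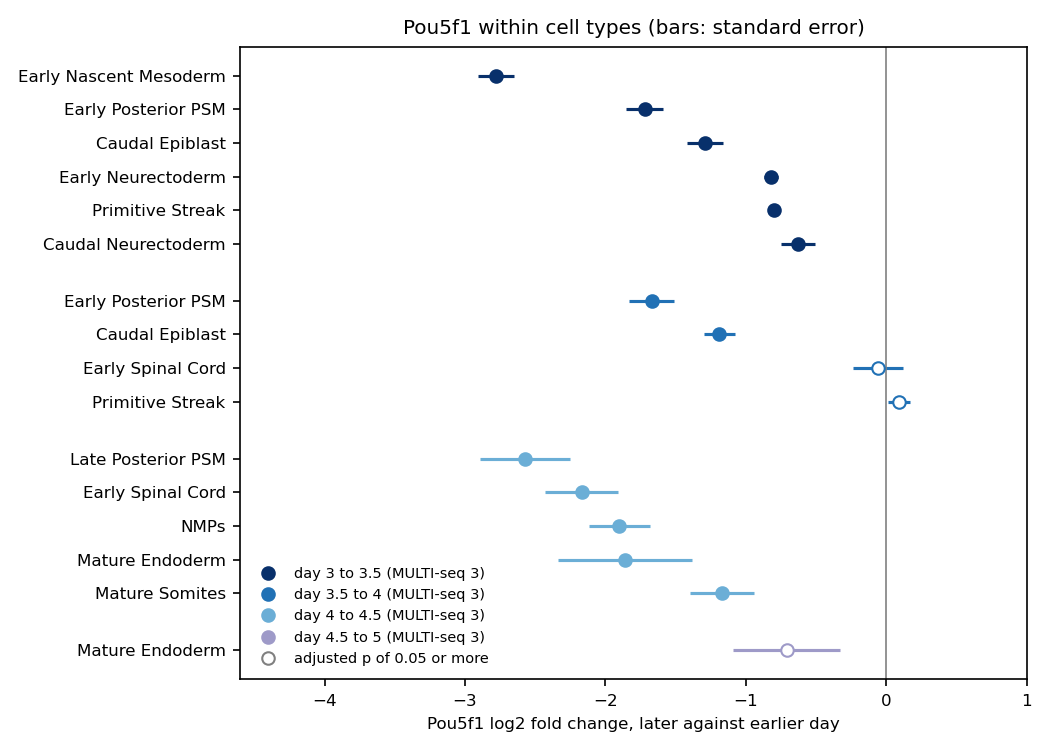
Log2 fold change of Pou5f1 within cell types, by day step, with standard errors; filled points have an adjusted p under 0.05. All 6 types from day 3 to 3.5 and all 5 from day 4 to 4.5 lie below 0, while Primitive Streak (0.09) and Early Spinal Cord (-0.06) lie near 0 from day 3.5 to day 4.

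From day 3.5 to day 4, Pou5f1 fell by 1.67 in Early Posterior PSM (SE 0.16, adjusted p = 9.84e-11; 18.6% of genes lower) and by 1.19 in Caudal Epiblast (SE 0.11, adjusted p = 1.55e-10; 10.2% lower). In Primitive Streak it was at 0.09 (SE 0.08, adjusted p = 0.615, 490.6 ± 50.9 and 503.1 ± 103 CPM, n = 16 and 5), and in Early Spinal Cord at -0.06 (SE 0.18, adjusted p = 0.931). In the Primitive Streak cells of the 5 day 4 gastruloids with enough of them, Nanog was higher by 1.27 (SE 0.27, adjusted p = 0.00217) and Utf1 by 2.02 (SE 0.42, adjusted p = 0.00206), where 2.74% of genes were higher. Pou3f1 rose by 0.84 in Early Posterior PSM (SE 0.23, adjusted p = 0.00356; 19.7% higher) and Sall4 by 0.42 in Early Spinal Cord (SE 0.09, adjusted p = 0.00748; 1.26% higher).

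From day 4 to 4.5, Pou5f1 was lower in 5 of 5 types, from 1.17 in Mature Somites (SE 0.23, adjusted p = 1.03e-04) to 2.57 in Late Posterior PSM (SE 0.32, adjusted p = 4.78e-09). Of all genes tested, 12.3% were lower in Mature Endoderm, 18.5% in Late Anterior PSM, 20.4% in Early Spinal Cord, 20.5% in Somites, 24.7% in NMPs, 26.7% in Mature Somites and 26.7% in Late Posterior PSM. In NMPs Pou5f1 fell by 1.90 (adjusted p = 1.93e-09), Early Spinal Cord by 2.17 (adjusted p = 3.07e-08) and Mature Endoderm by 1.86 (adjusted p = 0.00505). Mature Somites, among the 5 types, served above as the type that should lack Pou5f1. Cells of day 4 shared lanes with those of day 3.5, and day 4.5 was in another pool. Whether the background differed between these pools was not tested. Sall4 was lower in 3 of 7 types, by 0.51 in Mature Somites (adjusted p = 4.97e-06), 0.43 in Mature Endoderm (adjusted p = 8.32e-04) and 0.29 in Late Anterior PSM (adjusted p = 0.00408). From day 4.5 to 5 Sall4 fell again in Mature Somites, by 0.56 (SE 0.08, adjusted p = 9.76e-07; 7.64% lower), from 49.2 ± 8.53 to 32.8 ± 4.98 CPM (n = 13 and 16). It was higher by 0.30 in Late Posterior PSM (SE 0.09, adjusted p = 0.0421; 3.35% higher), a call lost with types of at least 20 cells (adjusted p = 0.0622) and with no filter on low counts (adjusted p = 0.0553).

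Levels and makeup were set against each other by weighting the types with at least 50 cells on both days. Types that were rarer on either day are left out, so the makeup part covers the kept types alone. From day 3 to 3.5, over 7 types that held 94.4% of the earlier and 82.0% of the later UMIs, the Pou5f1 level was 721.8 CPM on the earlier day and 292.4 on the later. With the later levels and the earlier makeup it was 411.6, and with the earlier levels and the later makeup 607.5. From day 3.5 to 4 the order was the opposite: over 11 types, with 94.3% of the earlier but 34.4% of the later UMIs, the level was 256.4 CPM and then 78.7, with 180.7 for the later levels alone and 155.3 for the later makeup alone. From day 4 to 4.5 the 14 types held 75.4% of the earlier and 97.6% of the later UMIs. Over them the level was 33.0 CPM and then 5.39, with 8.17 for the later levels alone and 23.3 for the later makeup alone. For Nanog from day 3 to 3.5 the level was 13.5 CPM with the later levels alone and 9.53 with the later makeup alone, between 19.0 on the earlier and 6.37 on the later day. These are sums over cells with no error attached.

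The PGC (primordial germ cell) cluster had high levels of most members. Of the 8 germ cell markers, Dppa3 was at 98.8 CPM in it and at 0.895 in the next type, and Tfap2c (25.2), Dnd1 (15.3), Nanos3 (5.70), Prdm14 (1.10) and Ifitm3 (118.3) were also highest there, while Prdm1 was highest in Cardiopharyngeal Mesoderm and Kit in Mature Endoderm. The cluster was second to Mature Endoderm in the summed level of the 6 endoderm markers (1137 against 3724 CPM). Over 252 cells of MULTI-seq 3 it had 715.3 Pou5f1 CPM, 357.2 of Utf1, 173.3 of Zfp42, 71.9 of Nanog, 23.7 of Tfcp2l1 and 18.3 of Esrrb, against 97.0 of Sall4 and 4.55 of Klf4. These 252 cells include cells called negative or as doublets, and 141 of them are of day 3. The cluster held 15 cells in 9 of 16 gastruloids at day 5 of MULTI-seq 3. Those cells had 610.8 Pou5f1 CPM (exact Poisson 95% interval 558.7 to 666.5) and 533.4 of Utf1 (484.8 to 585.6), intervals that cover counting error only.

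At day 5 the PGC and Primitive Streak clusters together made up 30 of 11075 cells (0.271%) and 0.448% of UMIs. They held 44.6% of the Pou5f1 UMIs, 54.8% of those of Nanog, 75.8% of Zfp42 and 90.2% of Utf1, against 0.517% of Sall4, 0.821% of Klf4 and 5.28% of Pou3f1. In the other cells Pou5f1 was at 3.20 CPM and Utf1 at 0.195. The gastruloid with the highest Utf1 level gave 186 of the 683 Utf1 UMIs of day 5. The clusters may have been named from these genes, so these shares over pooled cells are a description. In MULTI-seq 1 the same clusters, with 12 of 9634 cells, held 30.5% of Pou5f1, 55.3% of Nanog, 58.1% of Zfp42 and 87.3% of Utf1. At day 4 they were 1.03% of cells and held 17.7% of Pou5f1, 26.6% of Nanog, 57.9% of Zfp42 and 60.4% of Utf1, while Mature Endoderm, 8.64% of cells, held a further 47.3% of the Nanog UMIs.

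**Figure D5:**
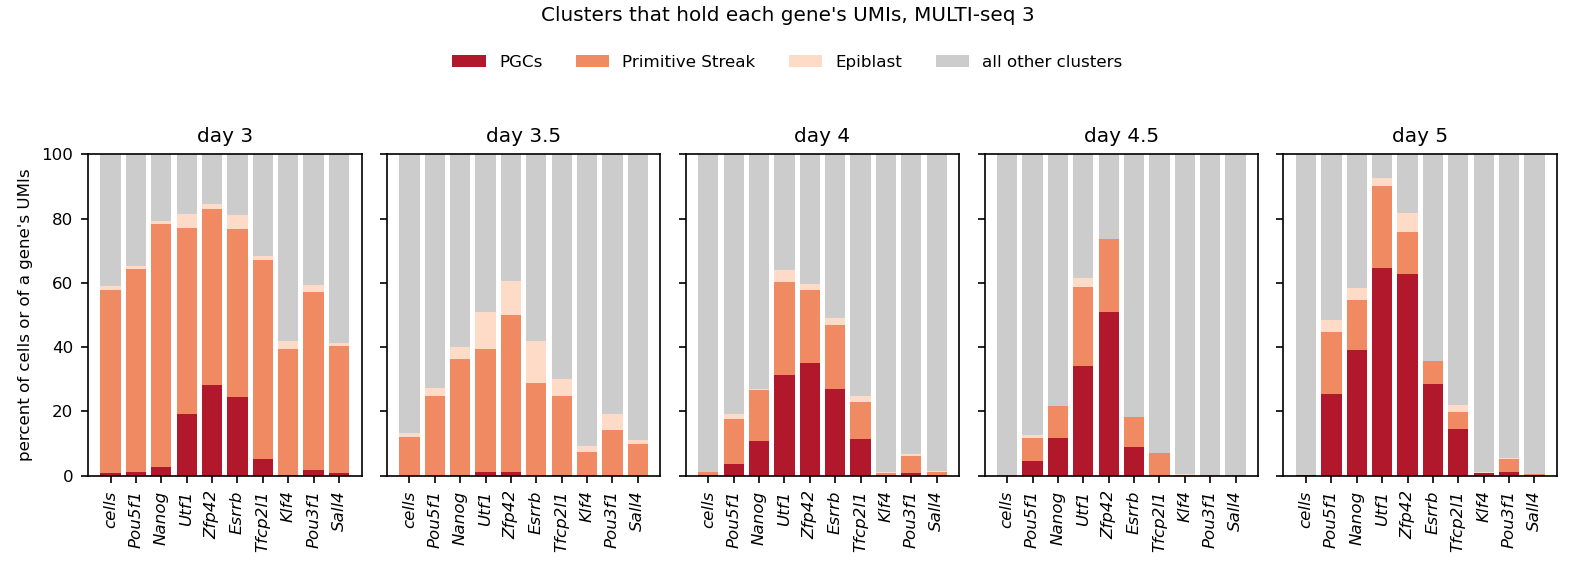
Share of cells and of the UMIs of each member held by the PGC, Primitive Streak and Epiblast clusters at each day of MULTI-seq 3, in percent, with the other clusters in grey. At day 5 these clusters are a sliver of the cells but hold 48.4% of the Pou5f1 UMIs and 92.5% of the Utf1 UMIs, and under 7% of those of Sall4, Klf4 and Pou3f1.

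At least 1 cell of the PGC, Primitive Streak or Epiblast clusters was found in 13 of the 16 gastruloids of day 5 in MULTI-seq 3 and in 15 of the 24 in MULTI-seq 1. The gastruloids at the top of the range, described next, were chosen after their values were seen, and holding such cells does not set them apart from most others. The highest Pou5f1 level of day 5 in MULTI-seq 3, 19.1 CPM against 8.86 in the next gastruloid, came with 2 PGC and 4 Primitive Streak cells among 582, and the same gastruloid had the highest Utf1 level (10.2 CPM against 4.27). In MULTI-seq 1 a gastruloid with 2 PGC cells among 199 had the highest Nanog (4.24 CPM against 1.01) and Zfp42 (7.64 against 2.01). The highest Pou5f1 level of MULTI-seq 1, 24.2 CPM against 10.2, came with 1 Primitive Streak cell among 164. After thinning to 5000 UMIs, cells with at least 3 of the 5 genes Nanog, Zfp42, Esrrb, Klf4 and Tfcp2l1 numbered 7 at day 3, all of them PGC cells, 2 at day 4 and 1 at day 5 in MULTI-seq 3. The share of cells with none of the 5 was 87.1% at day 3 and 98.5% at day 5. At day 3 all 12086 cells of the pool were counted, negative and doublet cells included. At days 4 and 5 only the 13750 and 11075 called cells were counted. The days are therefore not counted over like sets of cells.

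Cells that the barcodes called negative entered no sum per gastruloid, and their share of PGC cells is given as a description: the intervals cover counting error over cells only, not the spread between gastruloids or lanes. In MULTI-seq 1 they were 3 of 102 negative cells (2.94%, exact Clopper-Pearson 95% interval 0.611% to 8.36%) and 3 of 9634 with 1 gastruloid (0.0311%, 0.00642% to 0.091%). In MULTI-seq 2 they were 2 of 167 (1.2%, 0.145% to 4.26%) against 0 of 4226, which allows a share of up to 0.0873% (upper end of the exact interval). In the pool of days 3.5 and 4 they were 55 of 2990 negative cells (1.84%, exact Clopper-Pearson 95% interval 1.39% to 2.39%) and 19 of 18429 cells with 1 gastruloid (0.103%, 0.0621% to 0.161%). In the pool of days 4.5 and 5 they were 15 of 437 (3.43%, 1.93% to 5.6%) against 17 of 15663 (0.109%), and at day 3 they were 70 of 4847 (1.44%, 1.13% to 1.82%) against 58 of 5778 (1.00%, 0.763% to 1.3%), intervals that overlap. Pou5f1 was at 280 CPM in the negative cells of the pool of days 3.5 and 4 and 97.8 in the called ones, and at 70.9 against 6.27 in the pool of days 4.5 and 5. In that later pool Zfp42 was at 23.8 CPM in the negative and 0.556 in the called cells, and Utf1 at 37.9 and 1.61, so the late levels of these genes given above hold for called cells alone. Negative cells carry no day, so in these pools their mix of days and their level cannot be told apart. In the pool that held day 3 alone, Pou5f1 was at 709 CPM in the negative cells and 700 in the called ones. In MULTI-seq 1, which held day 5 alone, it was at 114 CPM in 102 negative cells and 5.07 in the called ones. Cells called as doublets, which were also left out, had 645 Pou5f1 CPM in the day 3 pool and 4.83 in the pool of days 4.5 and 5. The reason for the negative calls was not tested.

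Members were compared pairwise across the 24 gastruloids of day 3 in MULTI-seq 3 and the 24 of day 5 in MULTI-seq 1, as log2(CPM + 1) with permutation tests adjusted over 72 pairs. At day 3, 5 of 36 pairs passed, and at day 5, 4 of 36 did. How many pairs of other genes pass in the same gastruloids was not counted, so these counts have no background beside them. Pou5f1 and Nanog varied together at day 3 (Pearson's r = 0.64, permutation p = 0.00027, adjusted p = 0.00486; Spearman's rho = 0.76, permutation p = 5e-05, adjusted p = 0.0036), with r = 0.69 without the 2 gastruloids farthest from the median of Pou5f1. Pou5f1 and Tfcp2l1 did so as well over all 24 (r = 0.66, permutation p = 0.00018, adjusted p = 0.00456; rho = 0.63, permutation p = 0.0016, adjusted p = 0.0384), with r = 0.59 (adjusted p = 0.0626) without 2. Tfcp2l1 and Pou3f1 passed by r but not by rho (r = 0.60, permutation p = 0.00232, adjusted p = 0.0239; rho = 0.55, permutation p = 0.00545, adjusted p = 0.0561), with r = 0.64 without 2. Pou5f1 with Sall4 (r = -0.56, permutation p = 0.00452, adjusted p = 0.0405; rho = -0.42, permutation p = 0.0402) and Zfp42 with Esrrb (r = 0.56, permutation p = 0.00506, adjusted p = 0.0405; rho = 0.43, permutation p = 0.0367) rested on 2 gastruloids, with r = -0.36 and 0.20 without them. Pou5f1 with Utf1 went the other way, from r = 0.17 (permutation p = 0.441, adjusted p = 0.589) to 0.65 (permutation p = 0.00115, adjusted p = 0.0312) without 2. At day 5 none of the 4 pairs passed without the 2 farthest gastruloids, and the strongest, Nanog with Zfp42, went from r = 0.92 (permutation p = 1e-05, the smallest these permutations can give, adjusted p = 0.00072; rho = 0.75, permutation p = 0.00012) to 0.55.

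By the pattern over 56 combinations of cell type and day in MULTI-seq 3, the genes most like Pou5f1 among 9392 were L1td1 (r = 0.938), Tcfl5 (r = 0.905) and Rxrg (r = 0.904). Those most like Sall4 were Ing5 (r = 0.613), Naa30 (r = 0.603) and Rif1 (r = 0.594), and those most like Pou3f1 were Gfer (r = 0.771), Cry1 (r = 0.749) and Pak1ip1 (r = 0.735). The combinations share gastruloids, lanes and depth, and these correlations are descriptions.

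Other genes of the network were read from lists of names. From day 3 to 3.5, of 9 tested genes of the naive state 5 were lower and 3 higher (median log2 change -0.62, against 0.03 over all genes tested), and of 12 tested genes of the formative and primed states 8 were lower and 2 higher (median -0.78), beside 35.6% lower and 39.3% higher of all genes tested. Tdh, threonine dehydrogenase, fell by 2.99 from 9.48 ± 2.63 to 1.42 ± 1.01 CPM (adjusted p = 1.7e-15), and Dppa5a by 2.85 from 80.7 ± 28.2 to 12.0 ± 7.71 (adjusted p = 1.79e-15). Fgf5, a growth factor of the primed epiblast, fell by 3.10 from 76.2 ± 21.3 to 9.34 ± 6.47 (adjusted p = 1.71e-16), and Otx2 by 2.40 (adjusted p = 1.95e-08). Gbx2, which is also a posterior neural gene, rose by 1.48 (adjusted p = 3.83e-13), Fgf4 by 1.56 (adjusted p = 3.04e-06) and Lef1, an effector of Wnt signalling, by 0.98 (adjusted p = 2.04e-12).

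Of 10 tested general pluripotency genes, 3 were lower and 5 higher over that step (median 0.09), where 35.6% of all genes tested were lower and 39.3% higher. L1td1 fell by 2.31 from 139.0 ± 23.6 to 31.7 ± 13.7 CPM (adjusted p = 6.82e-19) and Tdgf1, a NODAL co-receptor, by 2.01 (adjusted p = 1.95e-05), while Mycn rose by 1.01 (adjusted p = 1.29e-15) and Sox2 by 0.69 (adjusted p = 0.00412). L1td1 fell at each of the next 2 steps too, by 2.03 to day 4 and by 3.25 to day 4.5 (adjusted p = 4.22e-09 and 1.1e-12), to 0.715 ± 0.479 CPM. Sox2, the partner of OCT4 that is also a neural gene, went from 28.3 ± 33.0 CPM at day 4 to 90.1 ± 75.5 at day 4.5 (log2 change 1.88, adjusted p = 5.42e-04). Otx2 rose by 2.94 to day 4 (adjusted p = 2.8e-05) and fell by 2.53 to day 4.5 (adjusted p = 3.89e-04).

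Relatives of the members within their gene families were read in the same way. From day 3 to 3.5, 6 of 10 tested relatives were higher and 1 lower (median 0.27), against 39.3% and 35.6% of all genes tested. The POU genes Pou3f2 (1.45, adjusted p = 1.43e-04) and, to day 4, Pou3f3 (2.08, adjusted p = 1.74e-07) rose while Pou3f1 fell, and Pou3f2, at 2.85 ± 2.19 CPM at day 3.5 and 1.85 ± 3.61 at day 4, rose by 3.14 from there to day 4.5 (adjusted p = 1.86e-05). Sall1 rose by 1.32 and Sall3 fell by 1.01 to day 4 (adjusted p = 1.4e-06 and 1.02e-07), a step at which Sall4 was not called. Tfcp2, the relative of Tfcp2l1, rose by 0.69 from day 3 to 3.5 (adjusted p = 1.68e-17), and Esrra, the relative of Esrrb, fell by 0.43 and 0.27 over the first 2 steps (adjusted p = 4.01e-08 and 2.36e-05). From day 4.5 to 5, the counts called were 2 of 6 naive, 2 of 8 general, 1 of 9 formative and primed genes and 2 of 11 relatives, while 13.5% of all genes tested were called.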

How the data were processed

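Gastruloid cells were measured with 10x 3′ v3.1 libraries, and UMI counts per gene and cell were deposited by the authors, together with a table of final cells with cell type names and gastruloid calls. Cell Ranger 6.0.0 and mm10 are named in the submitters' processing notes; the sources used here do not give how cells were filtered or types named. Cells called as doublets of gastruloids or as negative entered no sum per gastruloid. Lanes of a pool are technical splits and were summed.

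Counts were summed per gastruloid (at least 30 cells) or per gastruloid and type (at least 10 cells) and tested with edgeR 4.0.16 (R 4.3.3; TMM, filterByExpr, quasi-likelihood, two-sided, adjusted p under 0.05), with DESeq2 1.42.0 as an alternative. Only the groups of a comparison entered its fit. Of 136 gastruloids called, 135 had enough cells. Correlations used 100000 permutations (scipy 1.17.1). On data simulated for day 4 against 3.5 with 13262 genes, the edgeR test recovered 92% of 100 genes changed by 1 on the log2 scale and 100% of 100 changed by 2. The changed genes were few and drawn at all levels, while 31.1% of genes were higher and 29.2% lower in the real step. These rates need not hold for that step or for members with few UMIs. The 9 members are all named; of each other list, the 2 called genes with the largest rise and the 2 with the largest fall per step could be named, and for likeness the 3 genes with the highest r, for members with a mean of at least 5 CPM. The members and lists were chosen with earlier results of these data known. Alternatives were other size factors, UMI totals (added after seeing the data), DESeq2, no filter, other cell minimums, leaving out clusters and leaving out each lane. For the shares of cells, thinning to 3000 UMIs was the alternative.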

Additional observations from a re-analysis of the deposited data

Results flagged for a closer look

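In 7 of 98 sets of 4 to 10 gastruloids of 1 cell type, day and experiment, the highest or lowest gastruloid stood far from the nearest other one relative to the range of its set; chance marks about 1 set in 20. Pou5f1 was at 147.1 CPM in 1 of 8 gastruloids for Early Posterior PSM at day 4 of MULTI-seq 2, against 67.97 in the next. It was at 157.9 CPM in the lowest of 5 gastruloids for Caudal Neurectoderm at day 3 of MULTI-seq 3, against 390.1 in the next, and at 14.3 CPM in the highest of 8 for Cardiopharyngeal Mesoderm at day 4, against 9.10. Sall4 was at 255.2 CPM in the highest of 6 gastruloids for Caudal Epiblast at day 3 of MULTI-seq 3 (next 188.8) and at 152.6 in the highest of 4 for Early Nascent Mesoderm at day 4 (next 118.2). It was at 22.34 CPM in the lowest of 8 gastruloids for Late Posterior PSM at day 4.5 of MULTI-seq 2, against 38.51 in the next. Pou3f1 was at 19.9 CPM in the highest of 5 gastruloids for Late Spinal Cord at day 4.5 of MULTI-seq 2, against 9.31.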

How the results depend on the processing

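Of 349 alternative values of single members over the day steps, 334 kept their direction and their side of the threshold; the one that changed direction was Sall4 from day 3 to 3.5, which went from 0.07 to -0.38 without the PGC, Primitive Streak and Epiblast clusters, and the cause was not tested. Between experiments 187 of 203 did so, and within cell types 157 of 162. The counts of called members in this section are given without the share of all genes called in the same setting. For UMI totals such shares stand with most of the comparisons above. The shares of the main fits do not serve as background for other settings. The counts show how calls move with the setting and are no result about the members as a set. Fits with no filter on low counts test more genes, members among them. In these the members lower were 8 rather than 4 from day 4 to 4.5 in MULTI-seq 3, 0 rather than 1 at day 4 and 1 rather than 2 at day 4.5 between experiments. The members higher were 2 rather than 1 at day 4 and 3 rather than 1 at day 5 between experiments. With UMI totals in place of TMM, 2 members rather than 0, Sall4 and Klf4, were higher from day 3 to 3.5. Sall4 was then also called lower from day 4 to 4.5 in MULTI-seq 3, as given above. At day 4 between experiments 0 rather than 1 were lower and 2 rather than 1 higher. DESeq2 called 2 members higher at day 4 between experiments. With at least 100 cells per gastruloid, the members lower were 1 rather than 2 from day 4 to 4.5 in MULTI-seq 2 and 0 rather than 1 at day 4 between experiments. Without the PGC cluster, and without all 3 clusters, 1 member rather than 0 was lower from day 4.5 to 5.

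Leaving out each lane gave 0 to 1 members lower from day 4.5 to 5 and 1 to 2 from day 4 to 4.5 in MULTI-seq 2. Between experiments it gave 0 to 1 lower and 1 to 2 higher at day 4, 1 to 2 lower at day 4.5 and 1 to 2 higher at day 5. Within types, with at least 20 cells and so fewer gastruloids, the calls summed over types were 10 rather than 19 lower from day 3 to 3.5, 1 rather than 4 higher from day 3.5 to 4, 5 rather than 9 lower from day 4 to 4.5 and 0 rather than 1 higher from day 4.5 to 5. With no filter they were 5 rather than 2 lower from day 3.5 to 4, 15 rather than 9 lower and 1 rather than 0 higher from day 4 to 4.5, 3 rather than 1 lower and 0 rather than 1 higher from day 4.5 to 5, and 1 rather than 0 lower in MULTI-seq 2. Pairs of members past the threshold went from 5 to 3 at day 3 (2 of the 5, and Pou5f1 with Utf1) and from 4 to 0 at day 5 without 2 gastruloids, and were 2 and 1 by Spearman's rho. The cause of these changes was not tested.

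No paired analysis was possible because lanes are technical splits of a pool and gastruloids of different days share no number. Depth limits the members with few UMIs: Esrrb passed the filter on low counts in no step between days, and Nanog, Utf1, Zfp42 and Tfcp2l1 did not pass it from day 4.5 to 5.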
